A study of Mus musculus with 24 samples.

Results

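The myelin genes described here are Mbp, Mobp, Mog, Mag, Cnp, Cldn11, Ermn, Gjb1 and Mal, 9 genes of the 22562 listed in each of the cerebellum and cortex tables, and they were selected by gene symbol alone. All 9 passed the filter on low values in both tissues, among 13277 genes tested in cerebellum and 12815 in cortex. Total RNA was sequenced from the brains of symptomatic adult mice and littermate controls to look for transcriptional changes that accompany ataxia. Double mutants (Atm Nes-cre; Aptx-/-) lacked Aptx in every cell and had lost a conditional Atm allele through Nestin-cre, which acts in the progenitors of neurons, astrocytes and oligodendrocytes. Single mutants were Aptx-/- or Atm Nes-cre, the latter written Atm-/- in the study's text, and the animals labelled Control are called wild type there. Both tissues had 6 libraries of double mutants and 4 of controls, and cerebellum alone had 2 of each single mutant.

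Oligodendrocytes wrap axons of the central nervous system in compacted membrane, which speeds the conduction of impulses. Mbp (myelin basic protein) and Mobp adhere the cytoplasmic faces of compact myelin, Mal and Cldn11 organise its lipid domains and tight junctions, and Mag and Mog face the axon and the outer surface of the sheath. Cnp and Ermn shape the cytoplasmic channels and the actin cytoskeleton, and Gjb1 (connexin 32) forms the gap junctions that couple the layers of the sheath. Mature oligodendrocytes switch these genes on together under the control of Sox10, Olig2 and Myrf.

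RefSeq lists a promoter window for 8 of the 9 genes in build GRCm38.p6, from 250 bases before to 50 bases after the start. Of the genes whose double-mutant and control libraries did not overlap in cortex, those with a single listed start were Ermn, Mobp and Mog, and their windows are shown for the letters that SOX factors and Myrf are known to prefer. Capitals mark matches on either strand to the SOX cores ACAAAG and ACAATG and to the Myrf motif CTGGCAC or CTGGTAC.
Ermn, chr2:58052815-58053114, minus strand: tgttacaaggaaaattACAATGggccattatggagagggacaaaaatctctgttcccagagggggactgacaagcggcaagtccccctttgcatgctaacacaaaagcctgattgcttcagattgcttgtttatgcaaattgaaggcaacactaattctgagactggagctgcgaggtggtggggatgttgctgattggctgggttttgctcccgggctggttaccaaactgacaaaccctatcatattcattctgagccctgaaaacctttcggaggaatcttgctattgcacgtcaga
Mobp, chr9:120149492-120149791, plus strand: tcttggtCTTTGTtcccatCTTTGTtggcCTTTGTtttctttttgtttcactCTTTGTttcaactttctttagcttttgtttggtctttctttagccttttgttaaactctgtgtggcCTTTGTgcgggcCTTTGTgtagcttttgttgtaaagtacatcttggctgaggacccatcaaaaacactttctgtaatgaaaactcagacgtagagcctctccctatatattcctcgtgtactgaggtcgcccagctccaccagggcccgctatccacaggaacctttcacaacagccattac
Mog, chr17:37023349-37023648, minus strand: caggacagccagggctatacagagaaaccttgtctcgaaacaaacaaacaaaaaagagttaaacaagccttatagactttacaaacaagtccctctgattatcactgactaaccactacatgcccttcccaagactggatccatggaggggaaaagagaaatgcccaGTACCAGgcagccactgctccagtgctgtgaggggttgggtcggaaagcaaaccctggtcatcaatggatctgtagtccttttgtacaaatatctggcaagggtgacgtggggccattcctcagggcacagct
The Mobp window held 6 matches to the former SOX core (in its reverse complement), the Ermn window 1 match to the latter and the Mog window 1 match to the Myrf motif. Over all 32851 listed windows, 18.7% and 12.6% held these SOX cores and 7.10% the Myrf motif. Among the members not shown, the Cnp window held 1 match to ACAAAG and 1 to the Myrf motif, and those of Cldn11 and Mal held none. Mag and Gjb1, with several listed starts, held matches in some windows. A match describes letters in its window only.

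Several features of the libraries touch every comparison with controls. All control libraries, and double mutant 6 of both tissues, carried more than 10 significant digits in at least 98.5% of their values, against at most 0.0448% elsewhere. Low values of the other mutant libraries stood in ratios of small whole numbers for 90.0% to 98.6% of the genes compared, against 18.0% to 38.9% between control libraries and 0.472% to 1.58% with double mutant 6. Values of controls thus differed in form from those of most mutants, and their names carried another code, whose meaning is not given, so that the way values were made and genotype cannot be told apart against controls. In cortex double mutant 6 was the lowest of the 6 for 0 of the 9 members and the highest for 1, and in cerebellum the lowest for 2 and the highest for 2. Ddx3y, a Y-linked gene, lay under 1 FPKM (fragments scaled to transcript length and library size) in all controls, both Atm mutants, Aptx mutant 2 and double mutants 1 and 4, and at 19.9 FPKM or more in double mutants 2, 3 and 5 and Aptx mutant 1. Double mutant 6 lay between them in both tissues, at 2.30 FPKM in cerebellum and 8.24 in cortex, and whether its values come from 1 animal was not tested. Without it 3 members were higher in cerebellum, as with it, and 6 rather than 7 lower in cortex (Mag, adjusted p = 0.0556 by limma). By Ddx3y, sex was not balanced between controls and double mutants. Aptx reached 2.09 to 2.86 FPKM in cerebella labelled as lacking it and 3.11 to 3.67 in the others. Atm did not fall in Atm mutants at the level of the whole gene (7.45 to 9.14 FPKM in cerebella with Nes-cre against 6.75 to 7.13 in controls). The Aptx mutants, not labelled as lacking Atm, read 8.69 and 9.11 FPKM. Whole-gene values thus could not check the Atm labels, and the deleted exons were not examined. In cortex control 4 a single uncharacterised gene, Gm10654, took 322070 FPKM.

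The members spanned a wide range of levels, here given as FPKM and so per transcript length. In control cerebellum the means fell from Mbp (204 ± 25.1, SD, n = 4) and Mobp (165 ± 36.8) through Cnp (79.98 ± 2.72), Mag (43.8 ± 5.34), Mal (36.3 ± 6.03), Cldn11 (30.3 ± 2.50), Mog (20.7 ± 2.26) and Ermn (15.7 ± 2.15) to Gjb1 (6.36 ± 0.484). Mbp overlapped Mobp, Mag overlapped Mal and Mal overlapped Cldn11, whereas the other neighbours in this order were separated in all 4 libraries. In control cortex Mbp (278 ± 16.2) and Mobp (239 ± 19.1) again led, Mal (64.6 ± 5.59) stood above Mag (56.8 ± 8.02), and Gjb1 (7.81 ± 1.57) was again the lowest. There Mbp overlapped Mobp, Cnp overlapped Mal, Mal overlapped Mag, Mag overlapped Cldn11 and Mog overlapped Ermn. The order of the means in the double mutants matched that of the controls in both tissues, while in both single mutants Ermn stood above Mog, with ranges that overlapped.

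**Figure D1:**
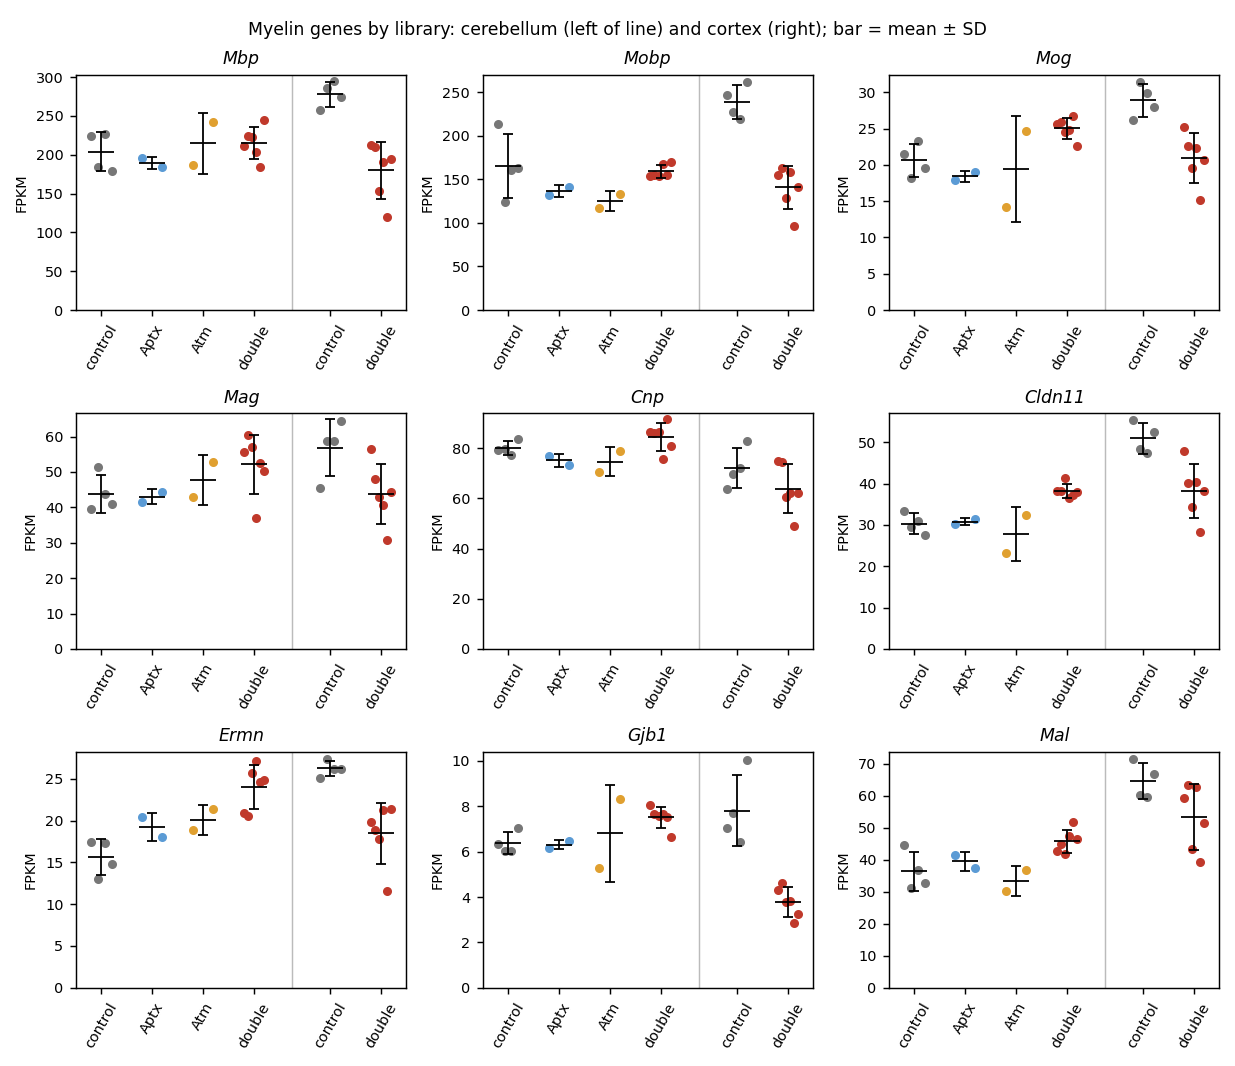
FPKM (vertical axis, from 0) of the 9 myelin genes in every library, by genotype for cerebellum left of the grey line and cortex right of it, with black bars for the mean ± SD. Cortical double mutants lie below all controls for Mbp, Mobp, Mog, Ermn and Gjb1, and cerebellar double mutants lie above all controls for Cldn11 and Ermn.

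In the cortex of double mutants most of the myelin genes fell. Of the 9 members, 7 were lower than in controls (Mbp, Mobp, Mog, Mag, Cldn11, Ermn and Gjb1), 0 were higher, and 2 (Cnp and Mal) did not pass the test (limma, adjusted p below 0.05). Of all 12815 genes tested, 38.8% were called, 14.5% lower and 24.3% higher. The median log2 fold change was -0.46 over the members and 0.03 over all genes. In bulk tissue, fewer oligodendrocytes and less transcript per oligodendrocyte cannot be told apart. The study's text describes myelination of the double-mutant brain as largely unperturbed. RNA levels do not measure myelin itself.

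The gap-junction gene Gjb1 (positions are from the GENCODE annotation of build mm9: chromosome X, 98571717 to 98580968, plus strand) showed the largest fold. Cortical controls 1 to 4 read 7.03, 7.72, 6.45 and 10.02 FPKM, and the 6 double mutants ran from 2.85 through a median of 3.82 to 4.64. Every double mutant lay below every control. Gjb1 was 1.84-fold lower on the scale of FPKM + 1 (log2 -0.88 ± 0.12, SE, adjusted p = 0.000139 by limma).

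Mobp, a basic protein of the major dense line (chromosome 9, 120058860 to 120090602, plus strand), read 247, 227, 220 and 262 FPKM in cortical controls 1 to 4. The double mutants ran from 96.9 through 148 to 163 FPKM, all below the controls. It was 1.71-fold lower (log2 -0.78 ± 0.12, adjusted p = 0.000384 by limma). For Mbp, which holds the membrane layers of myelin together, the controls read 257, 286, 295 and 275 FPKM and the double mutants ran from 120 through 193 to 212. The groups were again separate. Mbp was 1.57-fold lower (log2 -0.65 ± 0.14, adjusted p = 0.00244 by limma).

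Ermn, a protein that binds actin in myelinating cells (chromosome 2, 57897524 to 57905275, minus strand), was tight in cortical controls at 25.2, 27.4, 26.2 and 26.2 FPKM. Double mutants ran from 11.6 through 19.4 to 21.4 FPKM, all below the controls. The log2 difference was -0.51 ± 0.13 (adjusted p = 0.00799 by limma). Mog, an antigen of the outer sheath surface (chromosome 17, 37147691 to 37160343, minus strand), read 26.3, 31.5, 29.9 and 28.0 FPKM in controls and ran from 15.2 through 21.5 to 25.2 in double mutants, with no overlap. Its log2 difference was -0.46 ± 0.11 (adjusted p = 0.00457 by limma).

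Of the 9 members, 5 were thus lower without overlap of the groups, where 9.39% of all genes were. The remaining members overlapped between the groups. Cldn11 (chromosome 3, 31048868 to 31063246, plus strand) differed by -0.42 ± 0.11 on the log2 scale (adjusted p = 0.00885 by limma), with 47.5 to 55.3 FPKM in controls and 28.3 to 48.0 in double mutants. Mag (chromosome 7, 31684202 to 31699851, minus strand) differed by -0.38 ± 0.13 (adjusted p = 0.0405), with 45.4 to 64.2 and 30.7 to 56.6 FPKM. The call for Mag was lost when any 1 of 7 of the 10 libraries was left out, with adjusted p between 0.0114 and 0.116 over all such fits. Mal (chromosome 2, 127458962 to 127482431, minus strand) differed by -0.29 ± 0.12 (adjusted p = 0.0767), and without double mutant 2 or 4 it passed, with adjusted p down to 0.0397. Cnp (chromosome 11, 100436218 to 100453043, plus strand) differed least, by -0.18 ± 0.10 (adjusted p = 0.189), with 63.9 to 82.7 FPKM in controls and 49.0 to 74.9 in double mutants. Exons of Cnp and Ermn overlap those of Dnajc7 and Galnt5 on the other strand, by 154 and 237 bases, and whether the counting used strand was not given in the sources used here.

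The members moved together among the cortical libraries. Double mutant 5 was the lowest of its group for all 9 members, at a median of 52.7% of the control mean, and double mutant 3 followed at 67.3%. Double mutant 1 was the least reduced at 87.2%, and it was the highest of its group for 5 of the 9. Across the 10 cortical libraries all 36 pairs of members correlated positively (median r = 0.85, lowest 0.66 for Mag and Mal), and after subtraction of the group means all 36 remained positive (median r = 0.79). These correlations are descriptive, since the points share libraries and groups.

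Other transcripts moved with the cortical decrease. Markers of thalamus, striatum and other forebrain regions below the cortex, a list of 20 genes chosen after seeing the data, summed to 211 to 237 FPKM in controls and 114 to 211 in double mutants, lowest in double mutant 5. Of its 19 tested genes 10 were lower and 0 higher, among them Slc17a6, the vesicular glutamate transporter of thalamic neurons (log2 -1.07, adjusted p = 0.0013 by limma), and Tcf7l2 (log2 -1.22, adjusted p = 0.0015), which is also an oligodendrocyte factor. Of 20 brain stem and midbrain markers in the files, which summed to 7.04 to 10.1 FPKM in controls and 4.57 to 6.17 in double mutants, 2 were tested and 1 was lower. Cortical neuron markers summed to 189 to 222 FPKM in controls and 241 to 298 in double mutants, with 7 of 11 genes higher and 2 lower. Of all genes tested in cortex, 14.5% were lower and 24.3% higher. The part of these shifts in the myelin result was not tested.

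The Y-linked Ddx3y differed among the cortical double mutants as well. At 19.9 FPKM or more it marked double mutants 2, 3 and 5, and the latter 2 had the lowest myelin medians. Double mutant 6, at 8.24 FPKM of Ddx3y, had the third lowest, 75.1% of the control mean. Double mutant 2 had the most Ddx3y of the cortical libraries, 21.5 FPKM, and a myelin median of 78.4%. That lay above double mutant 4 at 77.4%, whose Ddx3y was under 1 FPKM. With Ddx3y as a covariate, chosen after seeing the data, 2 of 9 members were lower (Mobp, log2 -0.59, adjusted p = 0.0179, and Gjb1, log2 -0.80, adjusted p = 0.00613), while the calls over all genes fell from 4970 to 2340 (4.53% lower and 13.7% higher). In a fit of the libraries with Ddx3y under 1 FPKM alone, 2 double mutants against 4 controls, 4 members were lower (Mbp, Mobp, Ermn and Gjb1, log2 -0.46, -0.60, -0.34 and -0.78), where 4.26% of all genes were. All 9 members pointed down in both fits.

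**Figure D2:**
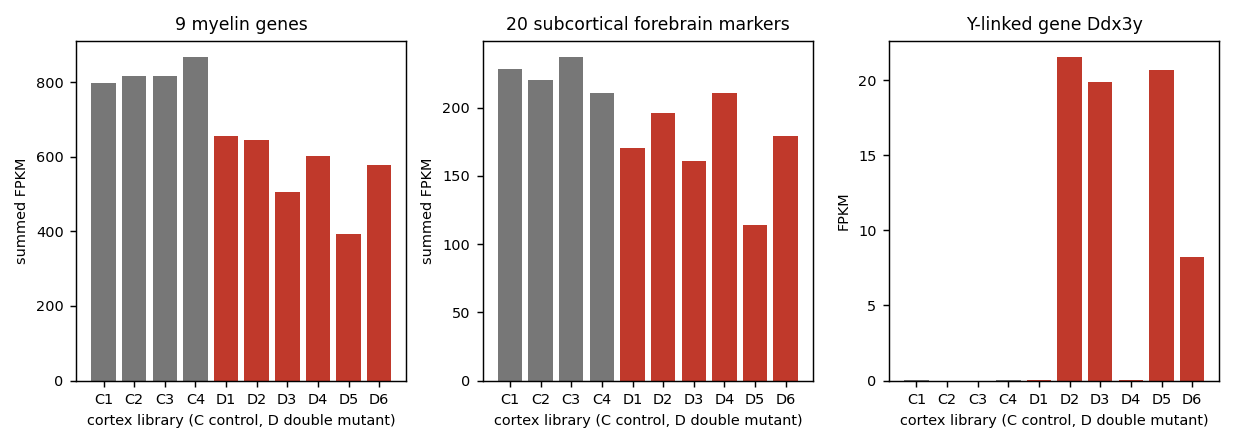
Summed FPKM of the 9 myelin genes (left), summed FPKM of 20 subcortical forebrain markers (middle) and FPKM of the Y-linked gene Ddx3y (right) in each cortical library, controls in grey and double mutants in red, all axes from 0. The myelin sum runs from 798 to 868 in controls and from 393 to 656 in double mutants, and double mutant 5 is the lowest in the left and middle panels.

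In the cerebellum of double mutants no myelin gene was called lower, and some rose. Of the 9 members, 3 were higher than in controls (Cldn11, Ermn and Mal) and 0 lower, where 22.3% of 13277 genes were higher, 10.1% lower and 32.4% called in all. The count of 3 in 9 lies near this background. The median log2 fold change was 0.24 over the members and 0.06 over all genes, and 8 of 9 members pointed up. Quantile normalization left 52.2% of all calls on the higher side against 68.9% as reported, and rescaling to equal medians left 49.8%. In cortex these shares were 62.6% as reported, 49.6% and 53.1%.

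Ermn rose most. Cerebellar controls 1 to 4 read 17.5, 13.03, 17.4 and 14.9 FPKM, and the double mutants ran from 20.6 through a median of 24.8 to 27.1, all above the controls. Ermn was 1.499-fold higher (log2 0.58 ± 0.09, adjusted p = 0.000454 by limma).

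Cldn11, the tight-junction protein of the sheath, read 33.4, 29.5, 31.0 and 27.5 FPKM in cerebellar controls and ran from 36.6 through 38.1 to 41.4 in double mutants, again without overlap. Its log2 difference was 0.33 ± 0.08 (adjusted p = 0.00569 by limma). Over all genes 15.5% were higher without overlap. Mal, a proteolipid of myelin rafts, read 44.6, 31.2, 36.9 and 32.6 FPKM in controls and ran from 41.7 through 45.5 to 51.7 in double mutants. Control 1 lay within the range of the double mutants. Mal differed by 0.33 ± 0.09 (adjusted p = 0.0138 by limma).

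The remaining 6 members did not pass the test in cerebellum. Mog (18.2 to 23.4 FPKM in controls, 22.6 to 26.8 in double mutants) differed by 0.27 (adjusted p = 0.0768), and Gjb1 (6.03 to 7.06 and 6.66 to 8.04) by 0.21 (adjusted p = 0.0877), all by limma. When single mutants were left out of the fit both were called, which gave 5 members higher, and the same happened when either Atm mutant was left out. The shares of all genes called in those fits are not given here. Mag (39.4 to 51.4 and 36.9 to 60.5 FPKM) differed by 0.24 (adjusted p = 0.139), and without double mutant 4, its lowest library, it passed at 0.33 (adjusted p = 0.00812). The most abundant members lay closest to zero, with Mbp at 0.08 (95% interval -0.12 to 0.28), Cnp at 0.08 (-0.04 to 0.20) and Mobp at -0.03 (-0.25 to 0.20). Mbp stood at -0.01 after quantile normalization, and Mobp at 0.02 with Ddx3y as a covariate.

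Among the libraries with Ddx3y under 1 FPKM alone, Ermn was the 1 member called higher in cerebellum (log2 0.58, adjusted p = 0.0473), where 3.04% of all genes were. Cldn11 then stood at 0.30 (adjusted p = 0.181) and Mal at 0.31 (adjusted p = 0.202). Brain stem and midbrain markers moved against the myelin genes, from 9.06 to 15.2 FPKM summed in controls to 4.70 to 7.96 in double mutants, with 3 of 5 tested genes lower and 0 higher. The decrease was not particular to double mutants. These markers summed to 4.97 to 5.26 FPKM in Aptx mutants and 4.40 to 10.3 in Atm mutants, with 3 and 2 of 5 genes lower than in controls. Of all genes tested, 10.1% were lower in double mutants, 5.16% in Aptx mutants and 3.25% in Atm mutants. The part of these markers in the result was not tested.

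Neither single mutation alone gave a called change of a member, in comparisons that share the same 4 controls with that of the double mutants. Against controls 0 of 9 members were called in Aptx mutants and 0 of 9 in Atm mutants (limma), where 15.6% of all genes (10.4% higher and 5.16% lower) and 10% (6.78% higher and 3.25% lower) were. At an unadjusted p below 0.05, Ermn was higher in both (log2 0.28 and 0.35, adjusted p = 0.137 and 0.0925) and Mobp lower in the Atm mutants (log2 -0.37, adjusted p = 0.108). The Aptx mutants read 20.4 and 18.0 FPKM for Ermn and the Atm mutants 18.8 and 21.4, between the controls and most double mutants. The Atm pair spread widely, since Atm mutant 1 was the lower for all 9 members, and its Mog value of 14.2 FPKM stood against 24.6 in Atm mutant 2. Without control 2, Mobp was called lower in both single mutants, and without Atm mutant 2, Mog was called lower in Atm mutant 1, a lone library that was assumed to vary like the other groups.

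Within the mutant libraries, which share 1 code in their names in cerebellum and of which double mutant 6 alone had values of the other form, the double mutants were compared with the mean of the single mutants. All 9 members pointed up, with a median log2 difference of 0.27 against 0.00 over all genes. Cldn11 was the 1 member called (log2 0.38 ± 0.08, adjusted p = 0.0216 by limma), where 1.98% of all genes were, 1.13% on the higher side. The Aptx mutants read 30.1 and 31.4 FPKM for Cldn11 and the Atm mutants 23.2 and 32.3, all below the lowest double mutant at 36.6. Leaving out single libraries moved the number of members called between 0 and 3. Without either Aptx mutant or without Atm mutant 1 it was 0, without double mutant 4 or control 1 it was 2, without Atm mutant 2 it was 3, and without double mutant 6 it was 1. A fit of mutant libraries alone gave 3, and libraries with Ddx3y under 1 FPKM gave 0. The shares of all genes called in these alternative fits are not given here.

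Set against each single genotype, 0 of 9 members were called above the Aptx mutants (limma, 4 at an unadjusted p below 0.05, with 0.143% of all genes called, 0.0829% higher and 0.0603% lower) and 1, Cldn11, above the Atm mutants (2.24% of all genes called, 1.29% higher). All 6 double mutants lay above both Aptx mutants for Mobp, Mog, Cldn11, Ermn, Gjb1 and Mal, where 5.72% of all genes did so, and above both Atm mutants for Mobp, Cldn11 and Mal, where 8.91% did. No member departed from the sum of the single-mutant effects at an adjusted p below 0.05 (limma, 4.51% of all genes called, 1.66% on the higher side), and at an unadjusted p below 0.05 this held for 4 members, Mobp, Mog, Cnp and Cldn11.

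The effect of the double mutation differed between the tissues, and this was tested directly in 1 fit that joined both tissues (20 libraries, without single mutants). The cerebellar effect minus the cortical effect was above 0 for all 9 members and called for 8, where 15.4% of 12322 genes were called on the higher side and 27.1% on either side. Whether the difference in form between control and mutant values was alike in both tissues was not tested, and the names of the mutant libraries carried different codes in cerebellum and cortex. Ermn (log2 1.09 ± 0.18, adjusted p = 0.000213) and Gjb1 (1.09 ± 0.14, adjusted p = 3.51e-05) differed most, by limma. Mobp, Cldn11, Mbp and Mog lay between 0.73 and 0.75, and Mal and Mag at 0.63 and 0.61. Cnp, the enzyme of the cytoplasmic channels, differed by 0.26 (95% interval -0.01 to 0.52, adjusted p = 0.139). In the libraries with Ddx3y under 1 FPKM, 2 members were called (Ermn 0.92 and Gjb1 1.05), where 0.657% of all genes were on the higher side, and all 9 stayed above 0. Without cerebellar control 1 or cortical control 4, Mag was not called.

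**Figure D3:**
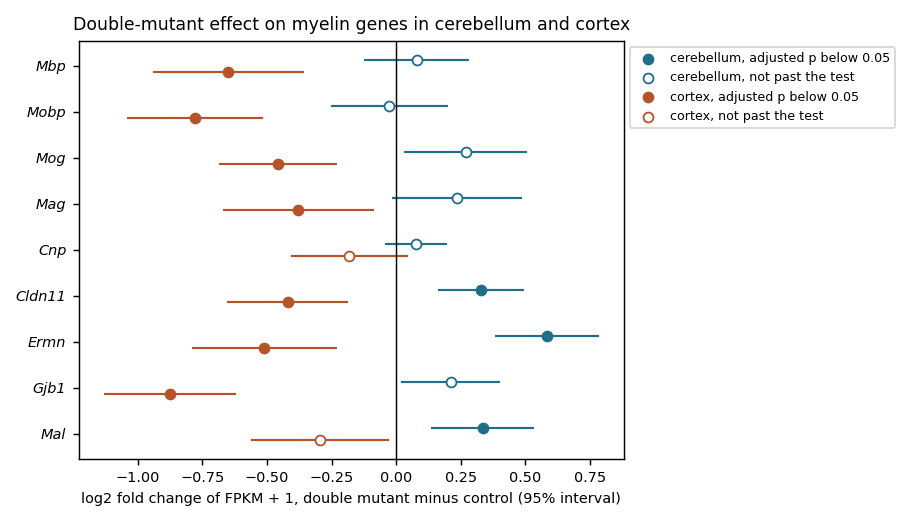
Log2 fold change of FPKM + 1, double mutant minus control, for each myelin gene (horizontal axis, points with 95% intervals), cerebellum in blue and cortex in orange, filled where the adjusted p was below 0.05. Cortical values lie between -0.88 and -0.18 and cerebellar values between -0.03 and 0.58.

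The levels themselves restate this contrast from the side of the tissues. They come from the same fit and are no separate evidence. In controls 7 of 9 members were lower in cerebellum than in cortex and 0 higher (27.9% and 37.3% of all genes, 65.2% in all), from -0.36 for Mag to -0.82 for Mal on the log2 scale. Gjb1 (-0.24, adjusted p = 0.0572) and Cnp (0.15, adjusted p = 0.181) did not pass (limma). In double mutants 0 of 9 were lower and 5 higher in cerebellum (30.5% and 45.5% of all genes, 76.1% in all): Gjb1 (0.84), Cnp (0.41), Ermn (0.38), Mbp (0.28) and Mog (0.26). Cldn11 stood at 0.02 and Mal at -0.19 there. The count of 5 in 9 higher lies near the 45.5% of all genes. The same numbers in the labels were taken to pair the tissues. With that pairing as a block, Gjb1 was called in controls (adjusted p = 0.0164 by limma) and Mag in double mutants (0.25, adjusted p = 0.0241). The cerebellum and cortex tables are separate, and median rescaling, which moved the all-gene median from 0.11 to 0.01 for the double mutants, left 3 members higher and made Mal lower.

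Genes outside the 9 followed them to different degrees. In cortex, the genes most like the mean standardised profile of the members over 10 libraries were Plekhb1 (r = 0.98), Fgfr2, Sept4, Carhsp1, Enpp2 and Erbb2ip (0.96 to 0.97). After subtraction of group means Plekhb1 again led (0.96), ahead of Fhad1, Nkain1, Tmem63a, Crocc and Tgfa (0.94 to 0.95). In cerebellum over 14 libraries they included Id3 (r = 0.91), Ctss, Timp3, Dync1li2 and Phyh (0.88 to 0.89), and after subtraction Zmym6 (0.95), Phyh, Fbxo44, Fhl2, Myo6 and Ddx59 (0.89 to 0.93). The most negative gene reached -0.98 in cortex (Gipc1) and -0.89 in cerebellum (Plekho1), so values of this size arise among many genes with few libraries. The members themselves were less alike in cerebellum (median r = 0.52, 35 of 36 pairs above 0), where Mobp and Mag ran against each other (-0.21).

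By its medians, a list of 30 other myelin genes also leaned down in cortex and up in cerebellum. In cortex 19 were lower, 4 higher and 7 did not pass, with a median log2 difference of -0.29. Over all genes 14.5% were lower and 24.3% higher there. In cerebellum 10 were higher, 0 lower and 20 did not pass, with a median of 0.20 against 0.06 over all genes. Over all genes 22.3% were higher in cerebellum and 10.1% lower, and the count of 10 in 30 lies near this background, as for the members. Between the tissues 19 of the 30 differed on the higher side and 0 on the lower, where 15.4% and 11.7% of all genes did. Ninj2, an adhesion protein, showed one of the steepest cortical decreases, from 4.22 ± 1.65 to 1.07 ± 0.440 FPKM (log2 -1.31, adjusted p = 0.000276).

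Not every gene of that list followed the pattern. The tetraspanin Cd9 rose in both tissues, from 9.68 ± 0.968 to 19.8 ± 1.27 FPKM in cerebellum (log2 0.97, adjusted p = 2.83e-06 by limma) and from 8.79 ± 1.02 to 11.7 ± 1.62 in cortex (log2 0.37, adjusted p = 0.00949). In cerebellum Gjc3, a connexin of oligodendrocytes (0.43), Apod (0.44) and Car2 (0.35) were higher too. In cortex Nfasc, the paranodal adhesion molecule, was lower (-0.40) and Sept8, a septin of the inner sheath, was higher (0.28).

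Factors that control the myelin programme moved less uniformly. Of 12 listed transcription factors, 4 were higher and 2 lower in cerebellum, and of 11 tested in cortex 1 was higher and 3 lower. The shares over all genes were 22.3% higher and 10.1% lower in cerebellum, and 24.3% and 14.5% in cortex. Sox10 rose in cerebellum from 4.69 ± 1.34 to 6.81 ± 1.26 FPKM (log2 0.47, adjusted p = 0.0205 by limma), and in cortex it stood at 7.02 ± 0.760 and 7.70 ± 1.19 (log2 0.11, adjusted p = 0.385). Nkx6-2 rose in cerebellum (0.33) and fell in cortex (-0.36), Zeb2 rose in cerebellum (0.26), and Zfp488, a transcriptional repressor made by oligodendrocytes, fell in cortex (-0.68). Tcf7l2 fell in both tissues, by 0.95 and 1.22 on the log2 scale.

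Lipid genes were mixed in cortex. Of 20 myelin lipid genes 6 were higher and 0 lower in cerebellum, and 5 were higher and 5 lower in cortex. All genes tested gave 22.3% higher and 10.1% lower in cerebellum, and 24.3% and 14.5% in cortex. The 30% of lipid genes higher in cerebellum lies near this background. Ugt8a, the enzyme that makes galactosylceramide, fell in cortex from 22.1 ± 3.01 to 15.5 ± 1.97 FPKM (log2 -0.49, adjusted p = 0.00218 by limma), and Acaca fell (-0.24) while Fasn rose (0.30). Aspa, which releases acetate for lipid synthesis, rose in cerebellum (0.49), with Degs1 (0.33), Elovl5 (0.24) and Elovl6 (0.17). Cholesterol synthesis had 0 of 22 genes higher and 4 lower in cerebellum, among them Sc4mol (-0.29), Fdps (-0.28) and Acat2 (-0.25). In cortex 4 of the 22 were higher and 5 lower, among them Idi1 (-0.37), Cyp51 (-0.28) and Ebp (0.29).

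**Figure D4:**
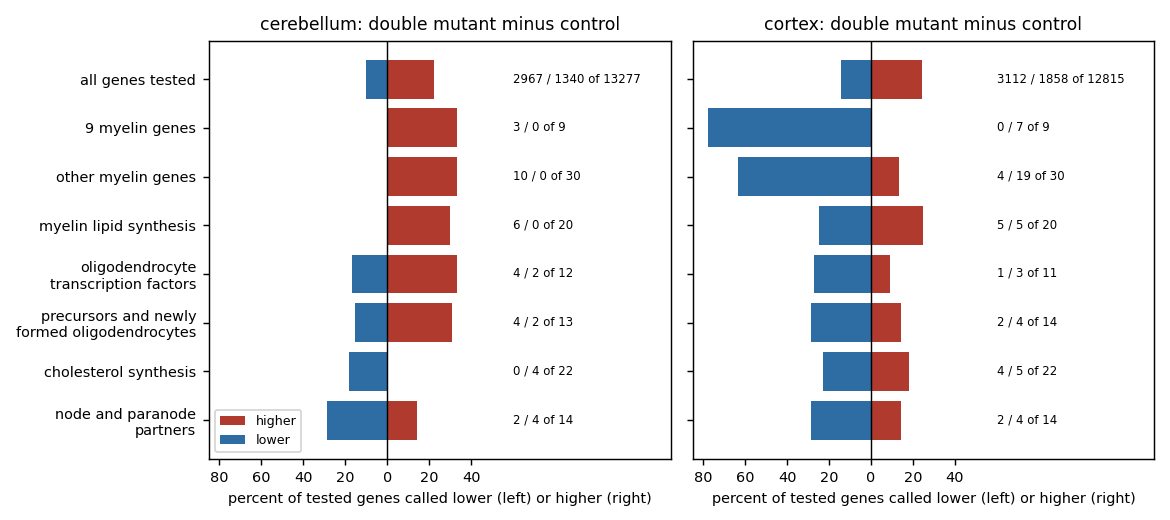
Percent of tested genes called lower (blue, left of 0) or higher (red, right of 0) in double mutants for each gene list, cerebellum on the left and cortex on the right, with the numbers called higher / lower of those tested at the side of each bar. The 9 myelin genes and the 30 other myelin genes extend to the lower side in cortex (7 and 19 genes) and to the higher side in cerebellum (3 and 10 genes). Over all genes tested, 14.5% were lower in cortex and 22.3% higher in cerebellum.

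Earlier stages of the lineage and the axonal partners of myelin were mixed in both tissues. Among precursors and newly formed oligodendrocytes 4 of 13 genes were higher and 2 lower in cerebellum, with Enpp6, an early marker of differentiating cells, rising to 2.69 ± 0.229 FPKM in double mutants (log2 0.56, adjusted p = 0.000578 by limma), and with Itpr2 (0.32), Fyn (0.24) and Vcan (0.21). In cortex 2 of 14 were higher and 4 lower, with Fyn at 0.27 and Ptprz1 and Sox6 both at -0.29. Of 14 node and paranode genes 2 were higher and 4 lower in cerebellum, among them Nrg3 (-0.59), the neurofilament Nefl (-0.48) and the potassium channel Kcna2 (0.29). In cortex 2 were higher and 4 lower as well, with Ank3 at -0.15 and Kcna2 at -0.21. For all genes the shares were 22.3% higher and 10.1% lower in cerebellum, and 24.3% and 14.5% in cortex.

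Markers of other cells were measured beside the myelin genes. Of 8 peripheral myelin genes in the files 3 were tested in cerebellum and 2 were higher, Pmp22 (0.39) and Sox10, which the list of transcription factors also holds. In cortex 5 were tested and 1 was lower (Scn7a, -0.24). The list summed to 14.1 to 20.3 FPKM in control and 20.5 to 23.8 in double-mutant cerebella, and Pmp2 was listed at 0 in the Atm and control cerebella. Microglial genes had 3 of 12 higher and 0 lower in cerebellum (among them Cx3cr1 0.33 and Csf1r 0.24), with sums of 68.3 to 88.3 FPKM in controls and 84.1 to 101 in double mutants. In cortex 3 of 12 were higher and 1 lower. Astrocyte markers had 4 of 11 higher and 1 lower in cerebellum (median log2 0.04), among them Gfap at 1.28 and Fgfr3 at -0.43. Their sums of 949 to 1050 FPKM in controls and 1143 to 1257 in double mutants did not overlap. The sums of the Aptx (1134 to 1144) and Atm mutants (1148 to 1185) lay above all controls too. In cortex 3 were higher and 3 lower (median -0.04), with Gfap at 0.42 and Fgfr3 at -0.40, and sums of 720 to 795 and 751 to 776 FPKM. Cerebellar neuron markers had 6 of 12 higher and 2 lower, the latter including Itpr1 (-2.78), the calcium-release channel of Purkinje cells. These counts stand beside 22.3% of all genes higher and 10.1% lower in cerebellum, and 24.3% and 14.5% in cortex. The microglial share of 25% higher in cerebellum lies near this background. The part of these other cells in the myelin result was not tested.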

How the data were processed

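Total RNA of cerebellum and cortex was ribosome-depleted, made into stranded libraries and sequenced. The authors mapped reads to mm9 with BWA 0.5.10, counted them with HTSeq and deposited FPKM values, 1 table per tissue; the HTSeq version and the use of strand in counting were not given in the sources used here. FPKM carries no absolute depth. The FPKM values summed to 229937 to 247730 per cerebellar and 239529 to 554380 per cortical library, with 12385 to 12774 genes at 1 FPKM or more.

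Values were tested as log2(FPKM + 1), which understates changes of low genes, with limma 3.58.1 in R 4.3.3 (moderated with a mean trend, two-sided), after a filter of at least 1 FPKM in 2 cerebellar or 4 cortical libraries, and p-values were adjusted by Benjamini-Hochberg over all genes tested. One fit held all 14 cerebella, one the 10 cortices, and one the 20 double-mutant and control libraries for tissue differences. Groups followed the labels. Nothing states that libraries of a group come from separate litters, so p-values measure the spread between these samples.

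Deviations of same-numbered double mutants correlated between tissues in 6 of 6 pairs (r = 0.234 to 0.499), and those of controls in 4 of 4 (0.130 to 0.308). The names of such double mutants share a code that starts with TS, whose meaning is not given. Same-numbered controls carry different TS codes in cerebellum and cortex. The tissues were treated as paired by number in an alternative fit. Whole-number ratios were sought among genes under 0.05 FPKM in both libraries (tolerance 0.0005 on the log2 ratio, whole numbers up to 5). Because neither controls nor double mutant 6 gave whole reads, no count test was run. The procedure was tested on simulated data.

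All 9 members are named. Other lists give up to 4 genes with the smallest p in cerebellum and up to 3 in cortex, and likeness is the Pearson r with the mean of the members' standardised log2 values, for up to 6 genes a set. Some genes that these rules name are not reported here. Cd9 and Sox10 in the second tissue, Slc17a6, Itpr1, Fgfr3, Ddx3y and Gm10654 were singled out after their values were seen. The members and lists were chosen with earlier results of these data known. Alternatives were pseudocounts of 0.1 and 0.01, no filter and a filter at 5 FPKM, quantile and median rescaling, no trend, subsets of libraries, the replicate block and leaving out each library, and, chosen after seeing the data, Ddx3y and leaving out double mutant 6.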

Additional observations from a re-analysis of the deposited data

Results flagged for a closer look

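Among 36 gene and group pairs with 4 to 6 libraries, 3 had a library far from the rest of its group, and chance gives about 1 in 20. Cldn11 reached 41.4 FPKM in cerebellar double mutant 3, above the other double mutants at 36.6 to 38.1. Ermn fell to 11.6 FPKM in cortical double mutant 5, below 17.8 to 21.4 in the others. Gjb1 stood at 6.66 FPKM in cerebellar double mutant 6, below 7.53 to 8.04 in the others.

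The effect of the double mutation differed between cerebellum and cortex for 8 members by the test of the difference itself (limma). On the log2 scale the differences were 0.73 for Mbp, 0.75 for Mobp, 0.73 for Mog, 0.61 for Mag, 0.75 for Cldn11, 1.09 for Ermn, 1.09 for Gjb1 and 0.63 for Mal. Without double mutant 6 of both tissues, 8 members were again called.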

How the results depend on the processing

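FPKM without depth, 2 libraries in each single-mutant group and controls with values of another form limit these comparisons. With the replicate number as a block, within a tissue where numbers did not pair the samples, 2 members were higher in cerebellum, 6 lower in cortex, and 0 above the single mutants or the Atm mutants. Paired between tissues, the block changed no call of a difference in effect. A fit of double mutants and controls alone gave 5 members higher in cerebellum, and mutants alone gave 3 above the single mutants and 3 above the Atm mutants. With Ddx3y as a covariate 2 were lower in cortex and 0 above the Atm mutants. With Ddx3y under 1 FPKM 1 was higher in cerebellum, 4 lower in cortex, 0 above the single or the Atm mutants, 2 differed in effect between tissues, and in double mutants 1 was higher and 1 lower in cerebellum than in cortex. Median rescaling gave 3 higher and 1 lower there. Shares of all genes called are not set beside these counts or those from leaving out 1 library. The counts thus do not show a change particular to the members.

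Leaving out 1 library gave 3 to 5 members higher in cerebellum, 6 to 8 lower in cortex, 7 to 8 with a difference in effect, 0 to 3 above the single mutants, 0 to 2 above the Atm mutants, 0 to 2 departing from additivity, 0 to 1 lower in Aptx mutants, 0 to 1 lower in Atm mutants and 0 to 1 lower in double-mutant cerebellum than cortex.

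Some log2 differences near 0 changed sign, and the cause was not tested. After quantile normalization Mbp stood at -0.0070 (cerebellar double mutants) and -0.044 (Atm mutants) and Cldn11 at -0.056 (Aptx mutants). After median rescaling Cldn11 stood at -0.032 in Aptx mutants and -0.086 between the tissues of double mutants. With Ddx3y as a covariate Mobp stood at 0.020 in double mutants and Gjb1 at 0.0057 in Aptx mutants. With Ddx3y under 1 FPKM, Mag stood at 0.027 and Gjb1 at 0.022 in Aptx mutants, Mag at -0.021 against single mutants and -0.083 between tissues, and Cldn11 at -0.23 between tissues. Leaving out 1 library moved Mobp from -0.16 to 0.10 in double mutants, and in Aptx mutants Mag from -0.069 to 0.057, Cldn11 from -0.021 to 0.070 and Gjb1 from -0.038 to 0.036. In Atm mutants it moved Mbp from -0.12 to 0.26, Mog from -0.50 to 0.25, Mag from -0.025 to 0.27, Cldn11 from -0.37 to 0.093, Gjb1 from -0.22 to 0.34 and Mal from -0.25 to 0.031. Mbp ran from -0.0015 to 0.18 against single mutants, and Cldn11 from -0.062 to 0.086 between tissues of double mutants.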
